A study of Mus musculus with 4 samples.

Results

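The 10 genes described here, Adgre1, Cd68, Csf1r, Lyz1, Lyz2, Cd14, Itgam, Aif1, Mpeg1 and Tyrobp, are general markers of myeloid cells and macrophages. They were taken by gene name, each as the probe with a single gene symbol and the highest mean over the arrays, out of 22180 genes measured. All 10 were found, each with exactly 1 probe, so no choice between probes was needed. RNA came from the epigonadal fat pad, a visceral white fat depot, of fasted male mice, and each of the 4 groups had 1 Affymetrix whole-transcript array. The Irs1/2-flox control carries floxed alleles of the insulin receptor substrates Irs1 and Irs2 and no Cre. LDKO carries the same floxed alleles with Albumin-Cre, whose promoter is active in hepatocytes. The Irs1/2:FoxO1-flox control carries floxed Foxo1 in addition, without Cre, and LTKO is that line with Albumin-Cre. Floxed Irs1 and Irs2 are thus common to all 4 groups. Albumin-Cre removes the floxed genes in the liver, so the fat studied here is not the targeted tissue. Both Cre lines were sampled at 4 months of age. The age of the controls, the length of the fast and whether an array holds 1 mouse or a pool are not stated in the labels. With 1 array per group there is no replicate spread, no test and no p-value, and every difference below compares 1 array with 1 array.

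Macrophages are tissue phagocytes that engulf dead cells, lipid and microbes and break them down in lysosomes. In white fat they sit between adipocytes, and their number and state change with feeding, fasting and obesity. Csf1r, the receptor through which most of them are kept alive, Adgre1 (F4/80) and Cd68 are standard labels for them. Itgam, Lyz2, Cd14 and Tyrobp are shared with monocytes and neutrophils. In a piece of whole tissue, fewer macrophages and less RNA of a gene per macrophage cannot be told apart.

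Lyz1 and Lyz2 encode the lysozymes that cut bacterial cell walls. They are neighbouring genes on mouse chromosome 10 and close copies, so the probe of one may also take up RNA of the other, which was not tested. Their promoters are shown because Lyz1 differed most of the 10 markers from the matching control in each Cre line and the sequences show how near the copies are. Each line holds the 250 bases before the start of transcription, from RefSeq for build GRCm38.p6, 5′ to 3′ on the minus strand. The capitals mark the letters ACTTCCT, the reverse complement of AGGAAGT, a core bound by ETS family factors such as PU.1, a myeloid regulator encoded by Spi1.
Lyz1, chr10:117292869-117293118: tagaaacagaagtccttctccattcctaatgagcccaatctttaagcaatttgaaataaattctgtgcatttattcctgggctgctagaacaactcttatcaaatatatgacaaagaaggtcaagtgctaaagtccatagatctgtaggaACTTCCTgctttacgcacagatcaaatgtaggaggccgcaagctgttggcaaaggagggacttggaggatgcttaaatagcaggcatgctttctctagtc
Lyz2, chr10:117282273-117282522: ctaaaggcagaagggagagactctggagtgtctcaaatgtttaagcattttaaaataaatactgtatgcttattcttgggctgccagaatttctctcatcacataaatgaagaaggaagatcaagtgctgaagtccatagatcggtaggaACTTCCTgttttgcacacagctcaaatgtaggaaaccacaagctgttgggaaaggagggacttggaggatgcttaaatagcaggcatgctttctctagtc

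The lysozyme promoters were identical at 200 of 252 aligned positions (79.4%), and the last 50 bases before the start were the same in both. The first 50 transcribed bases differed at 1 position. The motif AGGAAGT, searched on both strands and chosen after these promoters had been read, began 100 bases before the start in both genes. It was present in 7.69% of the 32851 promoter windows of this length, and in 2 of the 6 members whose promoters were searched. Cd68, Itgam, Aif1 and Mpeg1 did not hold it in this window. Csf1r and Cd14 were not searched, because promoters on chromosome 18 were left out for the members though not for the 32851 windows. No promoter of Adgre1 or Tyrobp was found. A match of letters is a description and does not show that a factor binds.

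The arrays were alike across genes, with Pearson's r of 0.986 to 0.991 between pairs, and levels are log2 signals on which 1 unit is 2-fold. Adipocyte markers were present as the tissue label says, since all 9 on the list, among them Adipoq and Plin1, had a mean that reached the median gene (5.15). By the same measure 9 of the 10 myeloid markers reached it, and Aif1 was just under it. As a gauge of how far arrays without Cre lie apart, the median absolute difference between both controls was 0.16 over 11432 genes, and 1 gene in 10 differed by more than 0.44. Some arrays carried signal of other tissues. The Irs1/2-flox control was the array with most skeletal muscle signal, with a summed linear signal over 5 genes of 843 against 309 to 444 elsewhere, and most mesothelial signal, with 1620 over 7 genes against 901 to 1020. LTKO carried epididymis and liver signal, with 695 over 6 epididymis genes against 99.6 to 105 elsewhere and 1250 over 5 liver genes against 193 to 268. The part of these signals in the results was not tested.

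**Figure D1:**
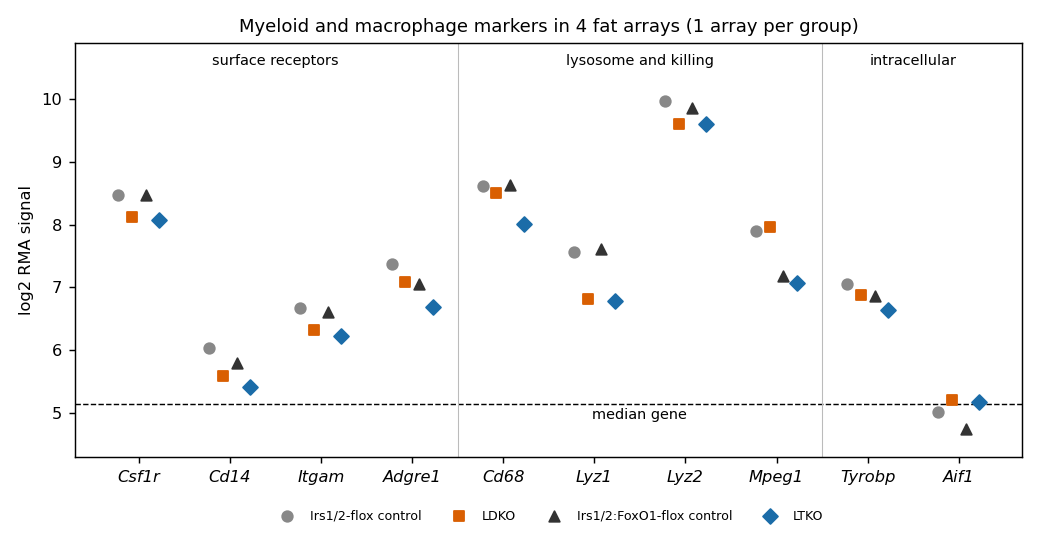
Log2 RMA signal of the 10 markers on each of the 4 arrays, 1 point per array, ordered by role; the dashed line is the median gene at 5.15, and heights are not comparable between genes. In 6 genes (Csf1r, Cd14, Itgam, Cd68, Lyz1 and Lyz2) the LDKO and LTKO points both lie below both control points, while Mpeg1 separates by floxed line and Aif1 runs the other way.

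Most of the markers were lower in fat of both Cre lines than in fat of the matching floxed control. In LDKO 8 of 10 were lower than in the Irs1/2-flox control, with a median difference of −0.32, where 56.7% of the 11533 genes past the filter on dim genes were lower and the median of those genes was −0.05. In LTKO 9 of 10 were lower than in the Irs1/2:FoxO1-flox control, with a median of −0.37, against 57.1% of 11533 genes and a median of −0.03. All 10 markers passed the filter in both comparisons, which asks that the higher array reach the median gene. The differences were small: 1 marker was at least 1.5-fold lower in LDKO (Lyz1), against 3.88% of genes, 2 were so in LTKO (Lyz1 and Cd68), against 0.867%, and none was at least 2-fold lower in either, against 0.624% of genes in LDKO and 0.0434% in LTKO. The same 8 genes were lower in both lines, a pattern shared by 32.7% of 11108 genes past the filter in both. The reference array mattered. With the controls exchanged, 6 of 10 markers were lower in LDKO with a median of −0.17, and 9 of 10 in LTKO with a median of −0.54 and 5 at least 1.5-fold lower.

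A stricter view asks for both Cre arrays to lie below both control arrays. This held for 6 of the 10 markers, Csf1r, Cd14, Itgam, Cd68, Lyz1 and Lyz2, against 19.6% of 11958 genes. Leaving out an array can only keep or raise this count, so it does not check the part of other tissues in these arrays. Without the muscle-rich Irs1/2-flox control array the count stayed at 6, against 41.0% of genes. When the LTKO array with its epididymis signal was left out, LDKO was below both controls for the same 6, against 43.7% of genes. LTKO was the lowest of the 4 arrays for 9 of 10 markers, against 20.1% of genes; the exception was Aif1.

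Among the surface receptors, Csf1r, the receptor for the growth factors Csf1 and Il34, was at 8.47 in the Irs1/2-flox control, at 8.12 in LDKO, at 8.47 in the Irs1/2:FoxO1-flox control and at 8.07 in LTKO. Both controls read the same to 2 decimals, and both Cre arrays were lower. The differences were −0.36 in LDKO (1.28-fold lower) and −0.40 in LTKO (1.32-fold lower), each more than the gauge of 0.16.

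Cd14, the co-receptor that hands bacterial lipopolysaccharide to Toll-like receptor 4, was at 6.03 in the Irs1/2-flox control, at 5.59 in LDKO, at 5.79 in the Irs1/2:FoxO1-flox control and at 5.41 in LTKO. The Cre arrays lay below both controls, although the controls themselves differed by −0.23. Against the matching control the differences were −0.44 in LDKO (1.36-fold lower) and −0.38 in LTKO (1.31-fold lower). With the other control as reference the LDKO difference was −0.21.

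Itgam, the alpha chain of the complement receptor CR3 (CD11b), was at 6.67 in the Irs1/2-flox control, at 6.32 in LDKO, at 6.61 in the Irs1/2:FoxO1-flox control and at 6.22 in LTKO. The 4 arrays fell into a higher pair without Cre and a lower pair with it, as for Csf1r. The differences were −0.35 and −0.40, and the controls were −0.06 apart.

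Adgre1, the adhesion G protein-coupled receptor F4/80 of mature mouse macrophages, gave a different order. It was at 7.38 in the Irs1/2-flox control, at 7.09 in LDKO, at 7.05 in the Irs1/2:FoxO1-flox control and at 6.69 in LTKO. LDKO thus lay next to the Irs1/2:FoxO1-flox control, with the Irs1/2-flox control high and LTKO low. The differences against the matching control were −0.29 and −0.35, but the controls differed by a similar amount (−0.34), and against the other control LDKO was at 0.05.

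Among the genes of degradation and killing, Lyz1 gave the widest difference of the 10 markers from the matching control in each Cre line. It was at 7.56 in the Irs1/2-flox control, at 6.81 in LDKO, at 7.62 in the Irs1/2:FoxO1-flox control and at 6.79 in LTKO. The controls were 0.06 apart and the Cre arrays −0.01 apart, so the arrays formed 2 tight pairs. The differences were −0.75 in LDKO (1.68-fold lower) and −0.83 in LTKO (1.77-fold lower).

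Lyz2, the lysozyme of macrophages and neutrophils and the gene behind the LysM-Cre line, was at 9.97 in the Irs1/2-flox control, at 9.61 in LDKO, at 9.86 in the Irs1/2:FoxO1-flox control and at 9.61 in LTKO. Both Cre arrays were again below both controls, with smaller differences than in Lyz1, −0.35 and −0.25. The Cre arrays were −0.01 apart. Because the copies share sequence, how the signal is split between Lyz1 and Lyz2 is uncertain.

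Cd68, a heavily glycosylated protein of the lysosomal membrane, was at 8.62 in the Irs1/2-flox control, at 8.51 in LDKO, at 8.64 in the Irs1/2:FoxO1-flox control and at 8.01 in LTKO. Here LTKO stood alone below the other three arrays. The difference was −0.64 in LTKO (1.55-fold lower) and −0.11 in LDKO, the latter within the gauge.

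Mpeg1, the pore-forming protein perforin-2 that attacks engulfed bacteria, was at 7.90 in the Irs1/2-flox control, at 7.96 in LDKO, at 7.19 in the Irs1/2:FoxO1-flox control and at 7.07 in LTKO. It separated the floxed lines, not the arrays with and without Cre. The differences within a line were 0.06 and −0.12, while the Irs1/2:FoxO1-flox control was −0.72 from the Irs1/2-flox control (1.64-fold lower) and LTKO was −0.90 from LDKO (1.86-fold lower). Against the other control LDKO was at 0.77 and LTKO at −0.84, so the reference decides what this gene shows.

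Of the intracellular genes, Tyrobp (DAP12), the adaptor that carries signals of activating receptors such as Trem2, was at 7.06 in the Irs1/2-flox control, at 6.88 in LDKO, at 6.86 in the Irs1/2:FoxO1-flox control and at 6.64 in LTKO. The 4 arrays had the same order as for Adgre1, with LDKO beside the Irs1/2:FoxO1-flox control. The differences of −0.18 and −0.22 were little more than the gauge, the controls differed by −0.19, and against the other control LDKO was at 0.02.

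Aif1 (IBA1), an actin-bundling protein used to stain macrophages and microglia, was at 5.02 in the Irs1/2-flox control, at 5.21 in LDKO, at 4.74 in the Irs1/2:FoxO1-flox control and at 5.17 in LTKO. Unlike the other markers it was higher in both Cre arrays than in both controls, by 0.18 and 0.43 against the matching ones. Its mean was at the 48.0th percentile of genes, just under the median gene. Whether its low signal has a part in these differences was not tested. Without Aif1 the median difference of the other 9 markers was −0.35 in LDKO and −0.38 in LTKO.

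**Figure D2:**
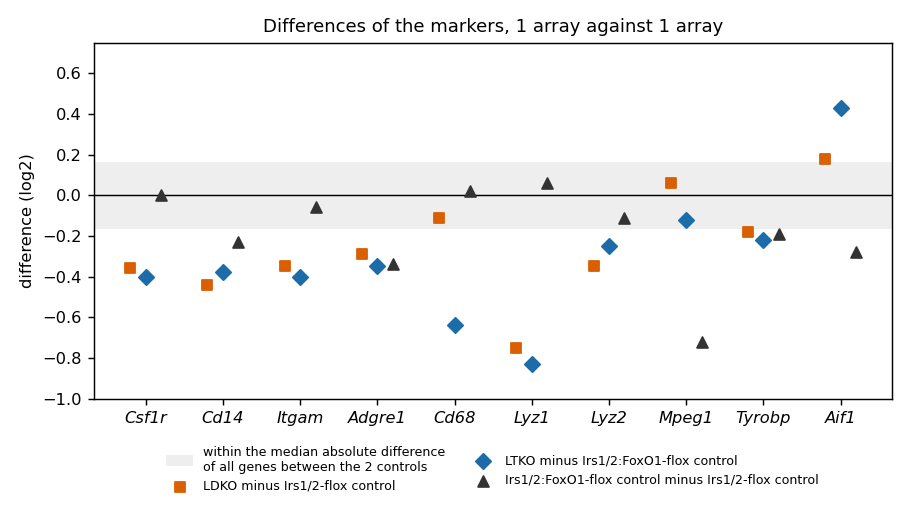
Log2 difference of each marker in LDKO and in LTKO against the matching floxed control, and between both controls, 1 array against 1 array; the grey band is the median absolute difference of all genes between the controls, 0.16 either way. Csf1r, Itgam and Lyz1 lie well below the band in both Cre lines with control differences inside it, whereas for Adgre1 and Tyrobp the control difference (−0.34 and −0.19) is close to those of the Cre lines, and for Mpeg1 it is larger than both.

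The controls themselves differed in these genes, and the comparisons above share these control arrays. In the Irs1/2:FoxO1-flox control 8 of 10 markers were lower than in the Irs1/2-flox control, with a median of −0.15, against 44.5% of 11432 genes and a median of 0.03; Aif1 did not pass the filter in this comparison. Only Mpeg1 was at least 1.5-fold lower, against 2.48% of genes. Set directly against LDKO, LTKO was lower in 10 of 10 markers, with a median of −0.14, against 42.5% of 11660 genes and a median of 0.05. The differences ran from −0.90 in Mpeg1 to −0.01 in Lyz1 and Lyz2, and 1 marker, Mpeg1, was at least 1.5-fold lower, against 2.57% of genes. Cd68 at −0.51 and Adgre1 at −0.40 followed Mpeg1. This comparison holds any difference between the floxed lines.

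The partner genes of the markers were read from lists of pathway genes. For the growth factors and receptors around Csf1r, 4 of 7 genes were lower in LDKO and 5 of 7 in LTKO, with medians of 0.00 and −0.03. Csf1, the main ligand, was at 6.74 in the Irs1/2-flox control, at 6.67 in LDKO, at 6.48 in the Irs1/2:FoxO1-flox control and at 6.44 in LTKO. Il34, the second ligand of Csf1r, was 5.33 and 5.78 in the first line and 5.43 and 5.80 in the second, control before Cre. It was thus higher in both Cre arrays than in both controls, by 0.45 and 0.36, in the direction opposite to its receptor. Csf2rb, the shared chain of the GM-CSF, IL-3 and IL-5 receptors, was higher by 0.65 in LDKO, but it was 5.72 in the Irs1/2-flox control and between 6.36 and 6.43 in the other arrays.

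For Cd14, the list of Toll-like receptor signalling had 6 of 11 genes lower in LDKO and 7 of 11 in LTKO, with medians of −0.03 and −0.06. Single genes of the list went both ways. Ly96 (MD-2), which holds the lipopolysaccharide, was at 8.43 without and 8.08 with Cre in the Irs1/2-flox line, and at 8.44 without and 7.97 with Cre in the Irs1/2:FoxO1-flox line. Tlr4, named here for its role after its values were seen, was 7.26 and 7.02, then 7.32 and 7.06, in the same order. In both genes the Cre arrays lay below both controls, with differences of −0.35 and −0.47 for Ly96 and −0.24 and −0.26 for Tlr4. Lbp, the secreted protein that delivers lipopolysaccharide to Cd14, was higher by 0.41 and 0.53 against the matching control. The controls differed by −0.63 in Lbp, and against the Irs1/2-flox control LTKO was at −0.10. The cytosolic adaptor Traf6 was at −0.44 in LDKO and 0.00 in LTKO.

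For Itgam, 2 of 7 genes of the beta2 integrins and their ligands were lower in LDKO and 4 of 7 in LTKO, with medians of 0.15 and −0.05. Itgb2, the beta chain that pairs with Itgam, was at 7.01 in the Irs1/2-flox control, at 6.75 in LDKO, at 6.73 in the Irs1/2:FoxO1-flox control and at 6.40 in LTKO. Its differences of −0.26 and −0.33 were near those of Itgam, but LDKO was level with the Irs1/2:FoxO1-flox control. Itgax (CD11c), the alpha chain of dendritic cells and lipid-laden macrophages, was higher in both Cre arrays than in the matching control, by 0.46 and 0.21. Fermt3, which activates these integrins inside the cell, was at −0.28 and −0.32.

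For Tyrobp, 7 of 10 coupled receptors and kinase genes were lower in LDKO and 8 of 10 in LTKO, with medians of −0.19 and −0.10. Trem2, a lipid receptor that signals through Tyrobp, was at 6.70 in the Irs1/2:FoxO1-flox control and between 6.07 and 6.15 in the other arrays. Its difference of −0.63 in LTKO thus rests on that control, and against the other control Trem2 in LTKO was at −0.02. Cd300ld, a CD300 family receptor, was at −0.31 and −0.54, and Syk, the kinase recruited by Tyrobp, at −0.33 and −0.09.

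**Figure D3:**
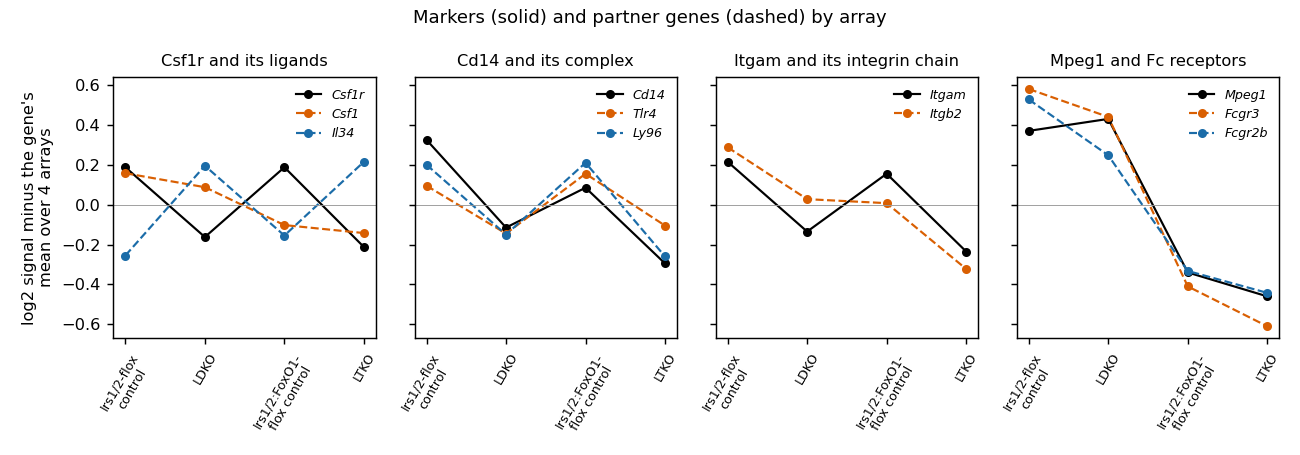
Log2 signal of markers (solid) and partner genes (dashed) on each array, minus the gene's own mean over the 4 arrays. Cd14, Tlr4 and Ly96 share a zigzag with both Cre arrays low, Il34 runs opposite to Csf1r, and Mpeg1, Fcgr3 and Fcgr2b drop between the floxed lines.

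The transcription factors of the myeloid line did not share the difference. Of 8 measured, 5 were lower in LDKO and 5 in LTKO, with medians of −0.05 and −0.13. Spi1 (PU.1) was at 6.74 in the Irs1/2-flox control, at 6.78 in LDKO, at 6.47 in the Irs1/2:FoxO1-flox control and at 6.35 in LTKO, which is closer to a step between the floxed lines than to one with Cre. Cebpa, which adipocytes express as well, was at 0.61 in LDKO and −0.16 in LTKO, and Nr1h3 (LXR alpha), a sterol sensor, at −0.17 and −0.43.

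The phagosome and lysosome genes went apart from Lyz1 and Lyz2. Only 6 of 16 were lower in LDKO, with a median of 0.10, and 12 of 16 in LTKO, with a median of −0.10. The sterol carrier Npc2 was at 0.70 in LDKO and −0.12 in LTKO, the protease cathepsin D (Ctsd) at 0.55 and −0.05, and the acid phosphatase Acp5 at 0.37 and −0.38. Many of these genes are active in all cells, adipocytes included. The list of C1q, Fc and complement receptor genes, which are mostly of macrophages, had 6 of 9 lower in LDKO and 8 of 9 in LTKO, with a median of −0.22 in both. In it Fcgr3 was at 6.79 without and 6.65 with Cre in the Irs1/2-flox line, and at 5.80 without and 5.60 with Cre in the Irs1/2:FoxO1-flox line. Fcgr2b was 8.90 and 8.62, then 8.04 and 7.93, in the same order. Like Mpeg1, both Fc receptor genes thus separated the floxed lines more than Cre from control.

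The markers were set beside other cell type lists, to see whether all leukocytes were low together. The pan-leukocyte genes did not follow in LDKO, where 5 of 10 were lower with a median of −0.01; in LTKO 9 of 10 were lower with a median of −0.16. Ptprc (CD45), the surface phosphatase of all leukocytes, was at 7.58 without and 7.53 with Cre in the Irs1/2-flox line, and at 7.04 without and 6.94 with Cre in the other line, a step between lines as in Mpeg1. The difference of Rac2, a GTPase of blood cells, was 0.30 in LDKO and −0.44 in LTKO, and that of Lcp1, an actin-bundling protein, 0.29 and −0.10. Their summed linear signal was at 1120 in the Irs1/2-flox control, at 1150 in LDKO, at 1020 in the Irs1/2:FoxO1-flox control and at 895 in LTKO, while that of the 10 markers was 2680, 2210, 2450 and 1910.

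Resident macrophage genes were lower in 9 of 9 in LDKO, with a median of −0.64, against 56.7% of genes past the filter. In LTKO 8 of 9 were lower, with a median of −0.32, against 57.1%. The controls differed too: 6 of 9 were lower in the Irs1/2:FoxO1-flox control, with a median of −0.23, against 44.5% of 11432 genes. Against that control the LDKO differences ran from −0.04 in Mrc1 to −1.07 in Vsig4, so their size depended on the reference array. Against the matching controls Folr2 was at −1.16 and −0.45 and Vsig4 at −0.79 and −0.96. Vsig4 was dim, with a mean at the 41.4th percentile of genes, under the median gene. It did not pass the filter in LDKO, where its higher array was at 4.99. In LTKO it passed through the control array, at 5.26. Whether the low signal of Vsig4 has a part in its differences was not tested. The Cre arrays were below both controls for 7 of these 9 genes, against 19.6% of 11958 genes. The lipid-associated macrophage genes did not go that way, with 2 of 6 lower in each line and medians of 0.08 and 0.15. Atp6v0d2, a proton pump subunit, was at 0.34 in both, but its controls differed by −0.69. Against the Irs1/2-flox control Atp6v0d2 in LTKO was at −0.35. Mmp12, a matrix protease, was 6.65 and 6.64 in the first floxed line and 5.34 and 5.21 in the second. Between the controls 5 of these 6 genes were lower in the Irs1/2:FoxO1-flox control, with a median of −0.49, against 44.5% of 11432 genes.

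Other blood cells that share some of the markers were dim or mixed. None of the 11 neutrophil genes reached the median gene on average, with Ly6g between 2.92 and 3.45 and S100a8 between 2.84 and 3.10, and their medians were 0.06 in LDKO and −0.23 in LTKO. Monocyte genes were lower in 4 of 7 in each line, with medians of −0.02 and −0.04. Ccr2, the receptor that brings monocytes into tissue, was at −0.45 and −0.33, but its controls differed by −0.55. Against the Irs1/2:FoxO1-flox control Ccr2 in LDKO was at 0.10. Chil3 was 4.92 in LDKO and 3.22 to 3.51 elsewhere, under the median gene (5.15) on every array. No eosinophil gene of 6 reached the median gene, and their medians were −0.21 and −0.04. Mast cell genes had medians of −0.35 and 0.00, and only 2 of 7 reached the median gene on average. Between the controls their median was −0.41. Kit was at −0.53 and 0.80, but its controls differed by −0.94 and both Cre arrays lay between them.

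Lymphoid genes differed in sign between the lines. T and NK cell genes were lower in 0 of 9 in LDKO (median 0.25) and in 7 of 9 in LTKO (median −0.28), and B cell genes were lower in 0 of 4 and 4 of 4 (medians 0.59 and −0.28). No B cell gene and only 2 T and NK cell genes reached the median gene. Dendritic cell genes were lower in 1 of 7 and 4 of 7, with medians of 0.18 and −0.01, so the LTKO median showed almost no difference. Ccr7 was at 0.59 in LDKO, and only 2 of the 7 dendritic cell genes reached the median gene. The difference between the lines was not tested.

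Among cells that are not of the blood, adipocyte genes had medians of 0.08 and −0.13 and endothelial genes 0.03 and 0.00, so the markers' differences were more negative than either. Their summed linear signals ran from 22700 to 24300 for adipocyte and from 3360 to 3500 for endothelial genes. Mesothelial genes moved with the markers in LDKO, at a median of −0.69 with 7 of 7 lower, and less in LTKO, at −0.19 with 5 of 7 lower. Stromal progenitor genes were at −0.44 with 5 of 5 lower and at −0.09 with 4 of 5 lower, and skeletal muscle genes at −1.29 with 5 of 5 lower and −0.05 with 3 of 5 lower. The part of these tissues in the marker differences was not tested. In LTKO the epididymis and liver genes were higher in 6 of 6 and 5 of 5, with medians of 2.13 and 2.73; in LDKO they were at −0.10 and −0.07.

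**Figure D4:**
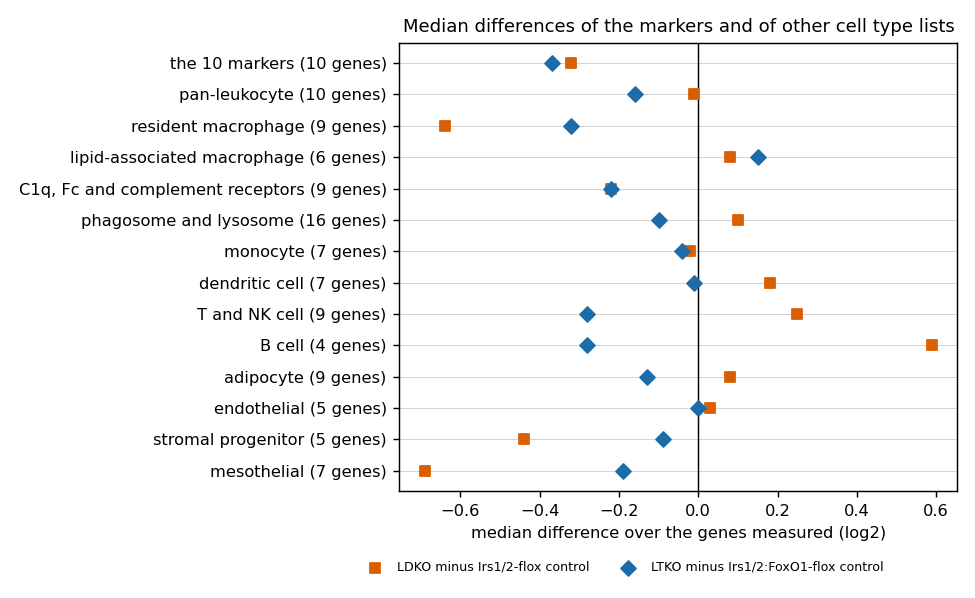
Median log2 difference over the measured genes of each list in LDKO and LTKO, each against the matching floxed control. The markers lie at −0.32 and −0.37, the resident macrophage genes at −0.64 and −0.32, and the pan-leukocyte genes at −0.01 and −0.16.

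The genes whose pattern over the 4 arrays was nearest to the mean pattern of the markers were sought among 11081 other genes, by the Euclidean distance between levels centred on each gene's mean. The mean pattern was 0.24 for the Irs1/2-flox control, −0.02 for LDKO, 0.05 for the Irs1/2:FoxO1-flox control and −0.26 for LTKO. The nearest was C1qc, a chain of complement C1q, at a distance of 0.0177, with 7.48, 7.20, 7.27 and 6.96 on the arrays in that order. Then came C3ar1, the receptor for complement C3a (0.0332), Plxna4, a semaphorin receptor (0.0436), Pstpip2, a cytoskeletal adaptor (0.0465), and Clec2d, a lectin-like ligand (0.0484). With 4 arrays many genes lie near any pattern, and the distance is a description. Of the markers Tyrobp was nearest to their mean (0.0907, with 25 other genes nearer), while Lyz1 (0.555), Aif1 (0.614) and Mpeg1 (0.649) were farther from it than most genes were.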

How the data were processed

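The authors deposited log2 signals, 1 per probe, from Affymetrix Expression Console and RMA (a background correction, a quantile normalization and a summary step), as the submitters' processing notes name them. Versions, and which arrays were normalized together, were not given in the sources used here. RMA removes a shift shared by all genes and compresses dim ones. The 41345 probes comprise 23521 with 1 gene symbol, 1814 with more and 16010 with no name here; 23328 symbols were brought up to date by gene identifier through GRCm38.p6, a build used for names, neighbours and promoter sequence.

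Differences are of log2 values between single arrays, with no test. Background shares use genes whose higher array reached the median gene. Size thresholds were 1.5-fold and, as an alternative, 2-fold. Of 194 symbols on 24 lists, 182 were measured. Named genes were all members, up to 3 per list with the largest difference in each Cre line, direct partners of a member chosen for their role, and the 5 nearest patterns; further list genes were named after their values were seen. The members and lists were chosen with earlier results of these data known. The steps were checked on simulated data. The number of arrays limits the precision. The software was Python 3.11.15, statsmodels 0.14.6 (loess, span 0.3), pandas 2.3.3, numpy 2.4.6, Biopython 1.88 (global alignment of the promoters) and, for figures, matplotlib 3.10.9.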

Additional observations from a re-analysis of the deposited data

How the results depend on the processing

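Of the 125 alternative values of the medians and counts of markers, 119 stayed within the gauge of 0.16 or within 1.5 times the count. Some alternatives could not move a value. Each marker has 1 probe, so the mean of a gene's probes repeats the main value, for medians, counts and single markers alike. Where all 10 markers passed the filter, keeping only those past it changed nothing. The tallies here are thus no measure of how firm the results are. The 6 values of medians and counts that moved were these. With the Irs1/2-flox control as reference for LTKO, the median was −0.54 and 5 markers were at least 1.5-fold lower. At a 2-fold threshold 0 markers were lower in LDKO, in LTKO, between the controls and in LTKO against LDKO. With the Irs1/2:FoxO1-flox control as reference for LDKO, the sign turned for Adgre1 (0.05) and Tyrobp (0.02), and 6 of 10 markers were lower with a median of −0.17. Of 160 values of single markers, 12 more moved by over 0.16 without turning, each under another reference array; 146 did not. A second quantile normalization, removal of a loess curve and other filters kept the direction of the median in all 4 comparisons. So did the mean over markers and leaving out each marker in turn. The count of markers with both Cre arrays below both controls, with alternatives added after the data were seen, was 6 after quantile normalization and without the Irs1/2-flox control or LTKO, 8 without the Irs1/2:FoxO1-flox control and 9 without LDKO. Leaving out an array could not lower this count. No paired analysis was possible because each group has 1 array. The gauge of 0.16 is a median over genes, so many genes lie farther apart than that between arrays without Cre.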
